A study of Drosophila melanogaster with 10 samples.

Results

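Cyclins, cyclin-dependent kinases and Cdc25 phosphatases were followed in fractions of S2 cells sorted as G1 and G2/M, S2 being a blood-cell-like line made from Drosophila embryos. The set was defined by name as 10 genes: the cyclin genes CycA, CycB, CycB3, CycD and CycE, the kinase genes Cdk1, Cdk2 and Cdk4, and the Cdc25 phosphatase genes stg (string) and twe (twine). A gene was measured where the platform annotation paired a probe set with that gene and no other. This gave 7 genes with 1 probe set each, among 11982 genes measured that way and 18769 probe sets in all: CycB (1639876_a_at), CycB3 (1626454_at), CycD (1627295_s_at), CycE (1626249_s_at), Cdk2 (1640394_s_at), Cdk4 (1639347_s_at) and twe (1622992_at). CycA, Cdk1 and stg, the other 3 genes, were not analysed here because no probe set was paired with them. The s in a probe set name marks probes that more than 1 transcript can share.

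Cyclins activate their kinase partners and are destroyed at set points of the cycle. In flies, cyclin D with Cdk4 acts during growth in G1, cyclin E with Cdk2 drives entry into S phase, and cyclins A, B and B3 with Cdk1 drive mitosis. Cdc25 phosphatases remove inhibitory phosphates from Cdk1, string in somatic cells and twine mainly in the germline and early embryo. The fly is known for controlling S phase through cyclin E and mitosis through string, while Cdk protein levels are thought to vary less than those of their cyclins.

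Stable S2 lines had received copper sulfate to switch on a knockdown of SLIMP, a mitochondrial relative of seryl-tRNA synthetase, and live cells had been sorted by a DNA dye. The labels gave control cells in G1 (n = 3) and in G2/M (n = 3), described as wild type, and SLIMP knockdown cells in G1 (n = 2) and in G2/M (n = 2). The labels do not say whether the control cells carried a construct or received copper, nor whether the lines are clones. Each library came from 25000 cells, whose cDNA was amplified by PCR for 15 cycles. Control libraries carry the numbers 1 to 3 and knockdown libraries 2 and 3, and the G1 and G2/M libraries with 1 label and number are called a culture here. No label states that different numbers are different cultures. Each p-value here is set against the spread between these libraries, which may be technical.

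Values are log2 signals, which RMA, the authors' array processing, brings to 1 common distribution per array, with medians of 6.554 to 6.608 and lower quartiles of 5.103 to 5.17. Slimp, the targeted gene, did not follow the labels. Its G1 signal was 12.55 in the culture labelled control 3 and 12.59 in knockdown 2, against 8.80, 8.95 and 8.68 in control 1, control 2 and knockdown 3. No direction is therefore drawn from the genotype labels, and results are given by culture. All 8 haemocyte markers measured had median signals above the array medians, from 7.64 for NimC1 to 13.26 for Col4a1. Crystal cell markers had medians of 4.39 (lz), 5.30 (PPO1) and 6.63 (PPO2), and the 3 lamellocyte markers ran from 6.24 (atilla) to 8.20 (PPO3), so PPO2 and PPO3 also lay above the array medians. Arrays report relative signal, so more RNA per cell and more cells holding the RNA cannot be told apart.

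The first comparison asked which members differ between G2/M and G1 when control and knockdown labels count equally. CycB3 rose 2.44-fold, Cdk2 1.54-fold and CycB 1.44-fold in G2/M. Cdk4 was 1.19-fold lower in G2/M in an estimate that passed with cultures paired or with cyclic loess scaling, and not in the unpaired fit as reported. CycD, CycE and twe did not pass. In a limma fit without pairing, 3 of the 7 members were higher, against a background of 3.21% of all 18769 probe sets higher and 1.58% lower. With culture as a paired block, 3 were higher and 1 lower, against 8.25% and 7.41% of all probe sets. The median difference of the 7 members was 0.01 (log2), and that of all probe sets was 0.

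**Figure D1:**
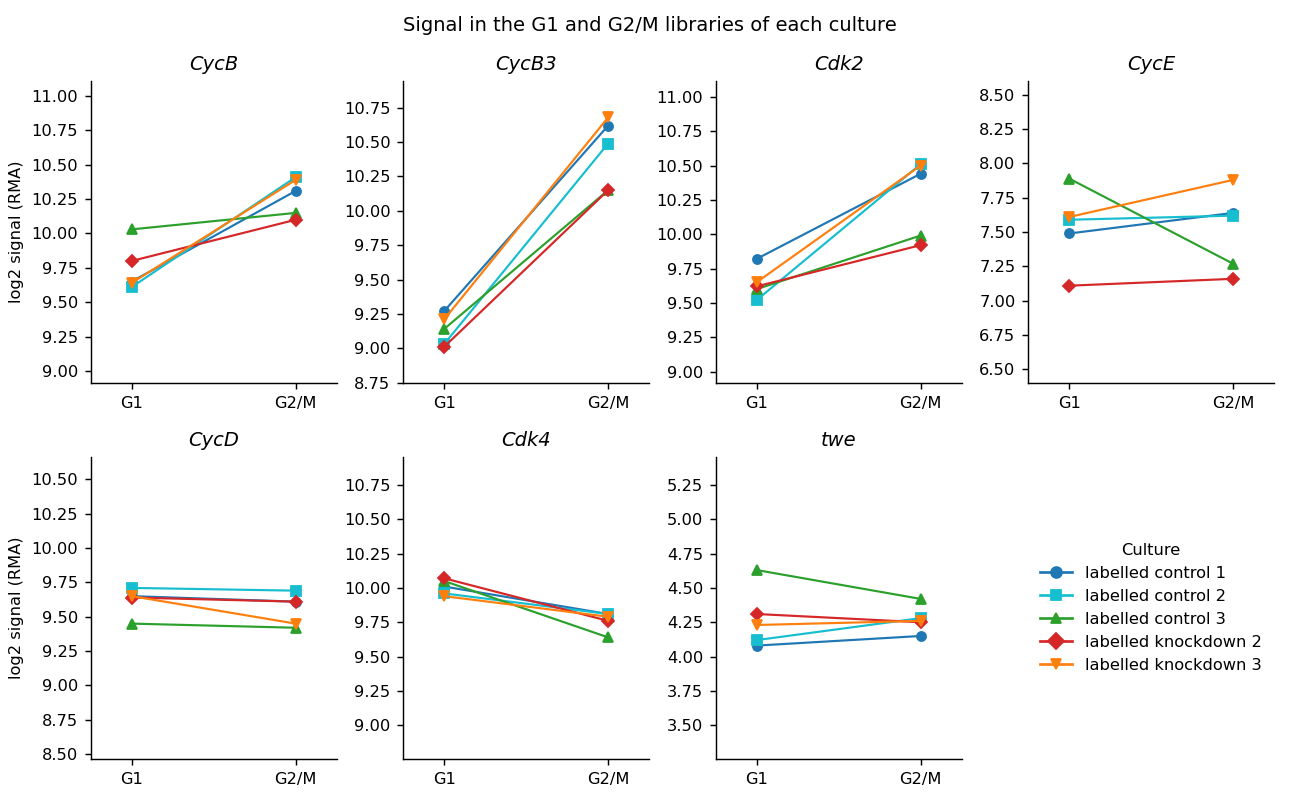
Log2 signal of the 7 measured genes in G1 and G2/M, with a line joining the libraries of each culture and each vertical axis spanning the same 2.2 log2 units. CycB3, CycB and Cdk2 slope upward in all 5 cultures and Cdk4 downward in all 5, while CycE slopes downward in the culture labelled control 3 alone.

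Among the mitotic cyclins, CycB3 encodes the B-type cyclin that acts late in mitosis. It read 9.27, 9.03 and 9.14 in the G1 libraries labelled control 1, 2 and 3, and 9.01 and 9.21 in those labelled knockdown 2 and 3. In G2/M the same cultures read 10.62, 10.49 and 10.15, then 10.15 and 10.68. The phases did not overlap, and 0.88 log2 units separated the highest G1 from the lowest G2/M library. How many of all probe sets have phases that do not overlap was not counted, here or for the members below. Of the other regulators examined below, some, such as fzr and Cks30A, did not overlap either, while others, such as CycJ and Cdk7, did. The G1 libraries lay within 0.26 of each other and the G2/M libraries within 0.52, so the spread among cultures was wider in G2/M. Both G2/M values of 10.15 came from control 3 and knockdown 2.

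The difference over both labels was 1.29 ± 0.13 (SE) on the log2 scale (adjusted p = 0.00408 in limma), and 15th from the top of all 18769 probe sets. Within cultures it was 1.35, 1.47 and 1.01 for control 1, 2 and 3, and 1.14 and 1.46 for knockdown 2 and 3. With culture as a paired block the adjusted p was 0.000305. The call held without any single library (adjusted p from 0.00288 to 0.0242). It was lost without the culture labelled control 1 (adjusted p = 0.0518), where 1 of all 18769 probe sets was called, against 899 in the reported fit. It was also lost without knockdown 3, which leaves 1 knockdown library a phase. The CycB3 difference stayed between 1.21 and 1.37 over the 5 fits that left out a culture. Without control 3 and knockdown 2 together, a choice made after the data were seen, the difference was 1.43. These cultures gave the smallest differences, so leaving them out raises the estimate by construction, and 1 knockdown library a phase is left.

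CycB encodes the main B-type cyclin partner of Cdk1. Its G1 signals were 9.65, 9.61 and 10.03 in control 1, 2 and 3, and 9.80 and 9.64 in knockdown 2 and 3. Its G2/M signals were 10.31, 10.41 and 10.15 in control and 10.10 and 10.39 in knockdown. The cultures labelled control 3 and knockdown 2 were the highest in G1 and the lowest in G2/M. The phases came within 0.07 of each other without overlapping.

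CycB was higher in G2/M in 5 of 5 cultures, but by unequal amounts. The within-culture difference was 0.67, 0.79 and 0.12 for control 1, 2 and 3, and 0.30 and 0.75 for knockdown 2 and 3, a spread of 0.30 (SD, n = 5) around a mean of 0.53. Over both labels it was 0.53 ± 0.11 (SE, adjusted p = 0.0283 in limma). The call was kept when the G2/M library labelled knockdown 2 or either library labelled control 3 was left out. It was lost without any of the other 7 libraries, with an adjusted p from 0.0567 to 0.145 and a difference that stayed between 0.45 and 0.60 over the 10 leave-outs. When single libraries labelled control 1 or control 2 were left out, 234 to 586 of all probe sets were called, against 899 in the reported fit. The same fits serve for Cdk2, fzr and CycK below. Without control 3 and knockdown 2, again chosen after the values were seen, the CycB difference was 0.74. Here too the cultures left out gave the smallest differences, which raises the estimate, and 1 knockdown library a phase is left.

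Cdk2, the kinase partner of cyclin E, read 9.82, 9.52 and 9.60 in G1 control libraries and 9.62 and 9.65 in G1 knockdown libraries. In G2/M it read 10.44, 10.51 and 9.99 in control and 9.92 and 10.50 in knockdown. G1 signals were close together in all 5 cultures, whereas in G2/M the libraries labelled control 3 and knockdown 2 lay well below the other 3. The phases did not overlap, with a gap of 0.10.

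The within-culture difference of Cdk2 was 0.62, 0.99 and 0.39 for control 1, 2 and 3, and 0.30 and 0.85 for knockdown 2 and 3. Over both labels it was 0.62 ± 0.14 (SE, adjusted p = 0.0402 in limma, 0.00901 with culture as a paired block). The unpaired call held without the G2/M library labelled control 3 or the one labelled knockdown 2 and was lost without any of the other 8, with an adjusted p from 0.0542 to 0.173. The difference itself ranged from 0.48 to 0.76 over these fits. Without control 3 and knockdown 2, again chosen after the values were seen, it was 0.83. As with CycB3, leaving out these cultures, which gave the smallest differences, raises the estimate and leaves 1 knockdown library a phase.

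**Figure D2:**
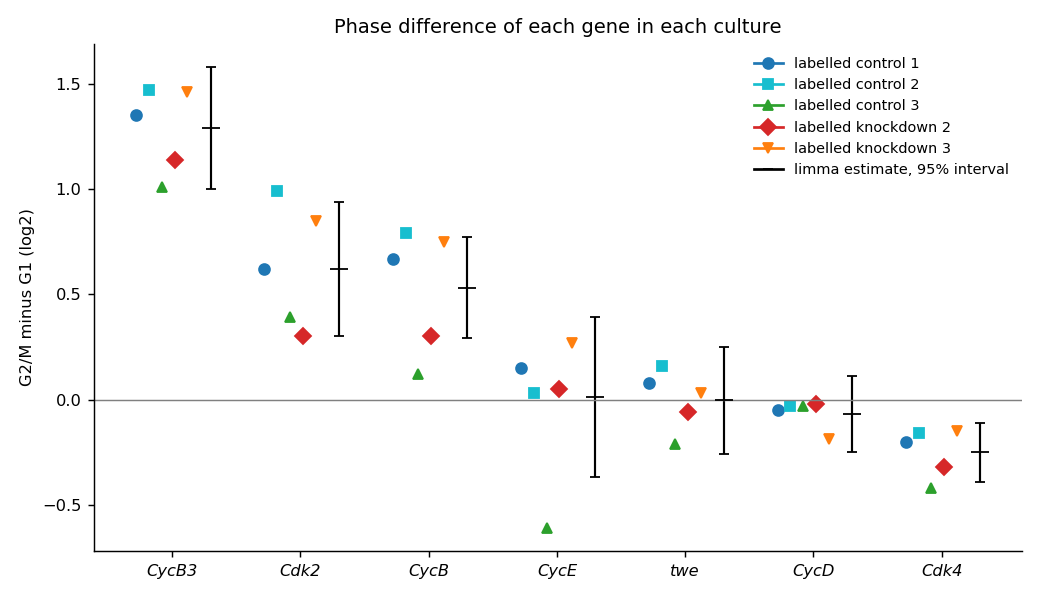
G2/M minus G1 difference (log2) of each gene in each of the 5 cultures, with the limma estimate over both labels and its 95% interval in black. The estimates run from 1.29 for CycB3 to -0.25 for Cdk4, and the cultures labelled control 3 and knockdown 2 give the 2 smallest differences for CycB3, Cdk2 and CycB and the 2 most negative ones for Cdk4.

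In CycB3, CycB, Cdk2, Cdk4 and twe the same cultures, control 3 and knockdown 2, gave the lowest within-culture differences. They were the cultures with high Slimp signal. For CycB3, CycB and Cdk2 this meant a smaller rise in G2/M, and for Cdk4 a larger fall. The twe signals lay below the lower quartile of every array. CycE and CycD did not have this order: knockdown 2 gave 0.05 for CycE, above control 2 at 0.03, and knockdown 3 was lowest for CycD. The order was not particular to the members, and its share over all probe sets was not counted. Of the other regulators examined below, many, such as CycJ, Rbf2 and CycC, had it, while others, such as trbl and Cks30A, did not. The part that Slimp, or anything else in which these cultures differ, has in this order was not tested. The labels put 1 of the cultures in control and the other in knockdown, so the contrast of phase differences by label does not measure it.

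The G1 regulators Cdk4 and CycD and the S phase cyclin gene CycE did not pass in the unpaired fit. Cdk4, the kinase partner of cyclin D, read 10.01, 9.96 and 10.05 in G1 control and 10.07 and 9.94 in G1 knockdown libraries. In G2/M it read 9.81, 9.81 and 9.64 in control and 9.76 and 9.79 in knockdown. It was lower in G2/M in 5 of 5 cultures, by 0.15 to 0.42, and the lowest G1 library stood 0.13 above the highest G2/M library. The difference over both labels was -0.25 ± 0.06 (SE, adjusted p = 0.0608 in limma), and with culture as a paired block the adjusted p was 0.0387. With cyclic loess scaling the difference was -0.30 (adjusted p = 0.0192). It did not pass when any single library was left out of the unpaired fit.

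CycD, the cyclin of that pair, read 9.65, 9.71 and 9.45 in G1 control and 9.64 and 9.65 in G1 knockdown libraries, then 9.61, 9.69 and 9.42 and 9.61 and 9.45 in G2/M. Its phases overlapped, and the culture labelled control 3 was lowest in both. All 5 within-culture differences were below 0, from -0.19 to -0.02. The estimate of -0.07 did not pass (adjusted p = 0.726 in limma), with a 95% interval from -0.25 to 0.11.

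CycE encodes the S phase cyclin. It read 7.49, 7.59 and 7.89 in G1 control and 7.11 and 7.61 in G1 knockdown libraries, and 7.64, 7.62 and 7.27 in G2/M control and 7.16 and 7.88 in G2/M knockdown libraries. The G1 libraries spanned 0.78 and the G2/M libraries 0.72, wider than any within-culture difference, and knockdown 2 was the lowest culture in both phases. Signal was higher in G2/M in 4 cultures, by 0.03 to 0.27, and lower by 0.61 in control 3. The estimate over both labels was 0.01 (95% interval -0.37 to 0.39, adjusted p = 0.992 in limma). An interval this wide leaves room for a change of either sign.

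Of the Cdc25 phosphatases, twe read 4.08 to 4.63 in G1 and 4.15 to 4.42 in G2/M, below the lower quartile of every array. The culture labelled control 3 was highest in both phases, and the phases overlapped. The estimate was 0 with a 95% interval from -0.26 to 0.25 (adjusted p = 0.992 in limma). Of 4 germline markers measured, vas was likewise low at 4.40 to 4.85, while aub lay at 9.26 to 10.01, bam at 8.15 to 9.72 and tej at 4.96 to 7.49.

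Taken by label, CycB3 was the 1 member of 7 that passed between phases in libraries labelled control, against 0.629% of all probe sets higher. The mean signal was 9.15 ± 0.12 in G1 and 10.42 ± 0.24 in G2/M (SD, n = 3 each), a difference of 1.27 ± 0.16 (SE, adjusted p = 0.0242 in limma). Leaving out either library of control 1 (adjusted p = 0.0676 for G1 and 0.144 for G2/M) or of control 2 (0.112 and 0.147) lost the call. With each of these 4 libraries left out, 0 probe sets were called between phases in control, against 169 in the reported fit. The CycB3 call was kept without any of the other 6 libraries. Its difference stayed between 1.18 and 1.41 over the 10 single leave-outs. Cdk2 differed by 0.66 (adjusted p = 0.120) and passed with culture as a paired block (0.0271), against 4.51% of all probe sets higher with the block. CycB differed by 0.53 (adjusted p = 0.107, 0.0573 with culture as a fixed block and 0.0367 as a random block, which called it). Cdk4 differed by -0.26 (adjusted p = 0.169, and 0.0953 with the block).

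In libraries labelled knockdown, limma called 0 of 7 members between phases and 0% of all probe sets. An unadjusted p under 0.05 was found for 4 members and for 1724 probe sets. CycB3 had a mean of 9.11 ± 0.14 in G1 and of 10.41 ± 0.37 in G2/M (SD, n = 2 each), a difference of 1.30 ± 0.20 (SE, adjusted p = 0.125 in limma). With culture as a paired block it was called (adjusted p = 0.00771) as 1 of 7 members, against 0.789% of all probe sets higher. The differences were 0.58 for Cdk2, 0.53 for CycB and -0.24 for Cdk4, with an adjusted p of 0.128, 0.161 and 0.265 with the block. The Cdk2 difference was 0.86 without the G2/M library labelled knockdown 2 and 0.29 without the one labelled knockdown 3.

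The interaction tested whether phase differences changed with the genotype label. It was called for 0 of 7 members and 0% of all probe sets in limma, with and without the paired block, and 0 members and 333 probe sets had an unadjusted p under 0.05 without the block. The 2 members with the smallest p were CycE, at 0.30 (95% interval -0.46 to 1.06), and CycD, at -0.07 (-0.44 to 0.29). For CycB3 the phase difference under the knockdown label minus that under the control label was 0.03 (-0.55 to 0.60). For CycB it was 0 (-0.48 to 0.48).

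Levels were also compared between the labels within each phase. In G1, limma called 0 of 7 members and 0% of all probe sets, with an unadjusted p under 0.05 for 0 members and 482 probe sets. CycE had the smallest p, with means of 7.66 ± 0.20 (SD, n = 3) under the control label and 7.36 ± 0.36 (SD, n = 2) under the knockdown label, a difference of -0.30 ± 0.24 (SE). CycD followed at 0.04. For CycE the difference was 0.07 without the cultures labelled control 3 and knockdown 2, and -0.44 without control 3 and knockdown 3.

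In G2/M, 0 of 7 members and 0% of all probe sets were called, with an unadjusted p under 0.05 for 0 members and 164 probe sets. Cdk2 had the smallest p at -0.10 ± 0.20 (SE), with 10.21 ± 0.41 (SD, n = 2) in knockdown and 10.31 ± 0.29 (SD, n = 3) in control. CycD differed by -0.04. Without control 3 and knockdown 2 the Cdk2 difference was 0.02, and without control 3 and knockdown 3 it was -0.55 (adjusted p = 0.243 in limma). Each of the last 2 values rests on 1 knockdown library.

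Genes that regulate these kinases were examined in 4 further lists. Of cyclin and Cdc25 destruction genes, 2 of 8 rose in G2/M over both labels and none fell, beside 3.21% higher and 1.58% lower among all probe sets. fzy, whose product (Cdc20) activates the anaphase-promoting complex, rose from 9.98 ± 0.15 to 11.04 ± 0.25 (SD, n = 5 each), an estimate of 1.05 ± 0.13 (SE, adjusted p = 0.00661 in limma). fzr, the Cdh1 activator of the same complex, rose by 0.45 ± 0.09 (SE, adjusted p = 0.0311), and its within-culture differences were close together at 0.39 to 0.51. The fzr call was lost without any of 8 single libraries, the exceptions being the G2/M library labelled knockdown 2 and the G1 library labelled control 3 (adjusted p up to 0.150). The fzy call held without any single library and was lost without the cultures labelled control 1, control 2 or knockdown 3 (0.0527 to 0.126). The ubiquitin ligase genes ago, slmb, Cul1 and SkpA lay between -0.10 and 0.06. The median of the list was 0.13.

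Of Cdk regulators, none of 8 measured genes passed without pairing, and the median was 0.22. With culture as a fixed paired block 3 rose and 1 fell, beside 8.25% higher and 7.41% lower among all probe sets. The kinase gene Cdk7, whose product activates other Cdks, gave 0.33 (adjusted p = 0.0105 with the block), its assembly factor Mat1 0.27 (0.0391, but 0.0558 with culture as a random block) and the Cdk subunit gene Cks30A 0.27 (0.0306). The cyclin gene CycH, a partner of Cdk7 in the same list, gave 0.11 and did not pass (adjusted p = 0.289 with the block). Its difference in knockdown 2 was -0.04. trbl, whose product tribbles promotes string and twine turnover, gave -0.37 (0.0256 with the block, 0.0926 without). trbl passed without the block when the G2/M library labelled control 3 was left out (adjusted p = 0.0206), as did Cks30A (0.0439); trbl also passed without that whole culture (0.0320). Cks30A and trbl are the 2 genes of this list with the smallest unpaired p, and the others were named after their values were seen.

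Of 10 other cyclins and Cdks, 1 rose and none fell, beside 3.21% higher and 1.58% lower among all probe sets. It was CycK, a partner of the transcriptional kinase Cdk12, at 0.26 ± 0.06 (SE, adjusted p = 0.0356 in limma). The CycK call held without the G1 library labelled knockdown 2 and was lost without any of the other 9 (adjusted p from 0.0504 to 0.140) and with cyclic loess scaling (0.0537). CycJ, named after its values were seen, had the largest difference of the list at 0.74, passing with culture as a fixed block (adjusted p = 0.00858) but not as a random block (0.0769). CycT, a partner of Cdk9 and likewise named after its values were seen, gave -0.21 (adjusted p = 0.0431 in limma with the block). With this fixed block 2 of the 10 genes rose and 1 fell, beside 8.25% higher and 7.41% lower among all probe sets. The CycJ cultures differed widely, with signals of 7.40, 7.64 and 6.78 in G1 control, and 6.76 and 7.42 in G1 knockdown libraries, and with differences from 0.32 in control 3 to 1.10 in knockdown 3. The median of the list was 0.02.

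Of 4 G1/S transcription genes none passed without pairing, with a median of 0.12. With culture as a fixed paired block 1 rose and none fell, beside 8.25% higher and 7.41% lower among all probe sets. Rbf2, 1 of the fly retinoblastoma family genes, gave 0.35 (adjusted p = 0.393, 0.0322 with culture as a fixed block and 0.120 as a random block), and the repressive E2F gene E2f2 gave 0.14 (0.304, and 0.181 with the fixed block). Rbf2 read 8.68, 8.58 and 8.74 in the G2/M libraries of control 1, control 2 and knockdown 3, and 7.99 and 7.94 in those of control 3 and knockdown 2.

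**Figure D3:**
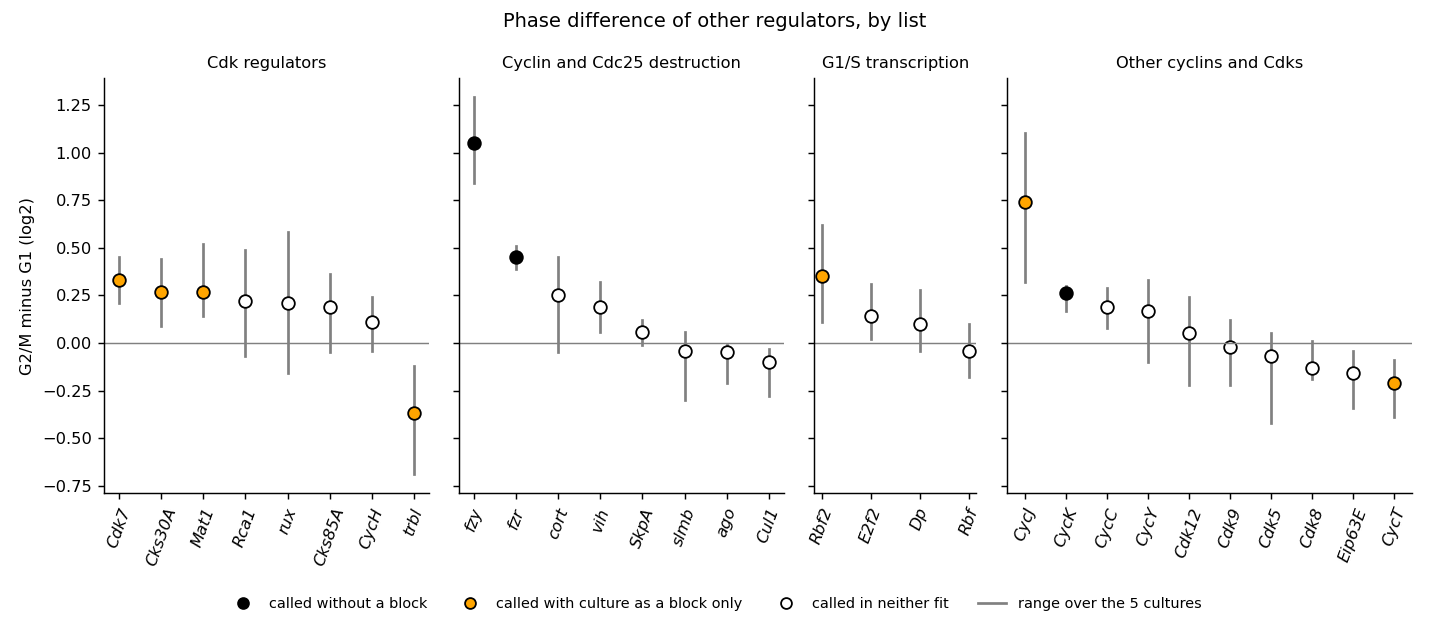
G2/M minus G1 difference (log2, limma estimate over both labels) of 30 other regulators in 4 lists, with grey bars for the range over the 5 cultures. Filled black points passed without a block (fzy, fzr and CycK), orange points passed with culture as a block only, and open points passed in neither fit.

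The genes whose signal ran most like that of a member across the 10 arrays were found by Pearson's r among probe sets with 1 gene and a mean signal at or above the median. These values carry no p, because the arrays come in pairs and fall into 2 phases. For CycB3 they were Rrp1 (r = 0.9952), CG6650 (0.9935) and dgt4 (0.9934), a gene for a subunit of the augmin complex. Their mean within-culture phase differences were 0.67, 0.44 and 0.67. For CycB they were CG18661 (r = 0.985), CG30105 (0.9791) and the Polycomb group gene Sfmbt (0.9776), with mean phase differences of 0.73, 0.32 and 0.66. For CycE the closest were less alike, with r of 0.8804 for qkr58E-2, 0.8747 for msl-1 and 0.8704 for heix, and mean phase differences of -0.03, 0.03 and -0.02.

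**Figure D4:**
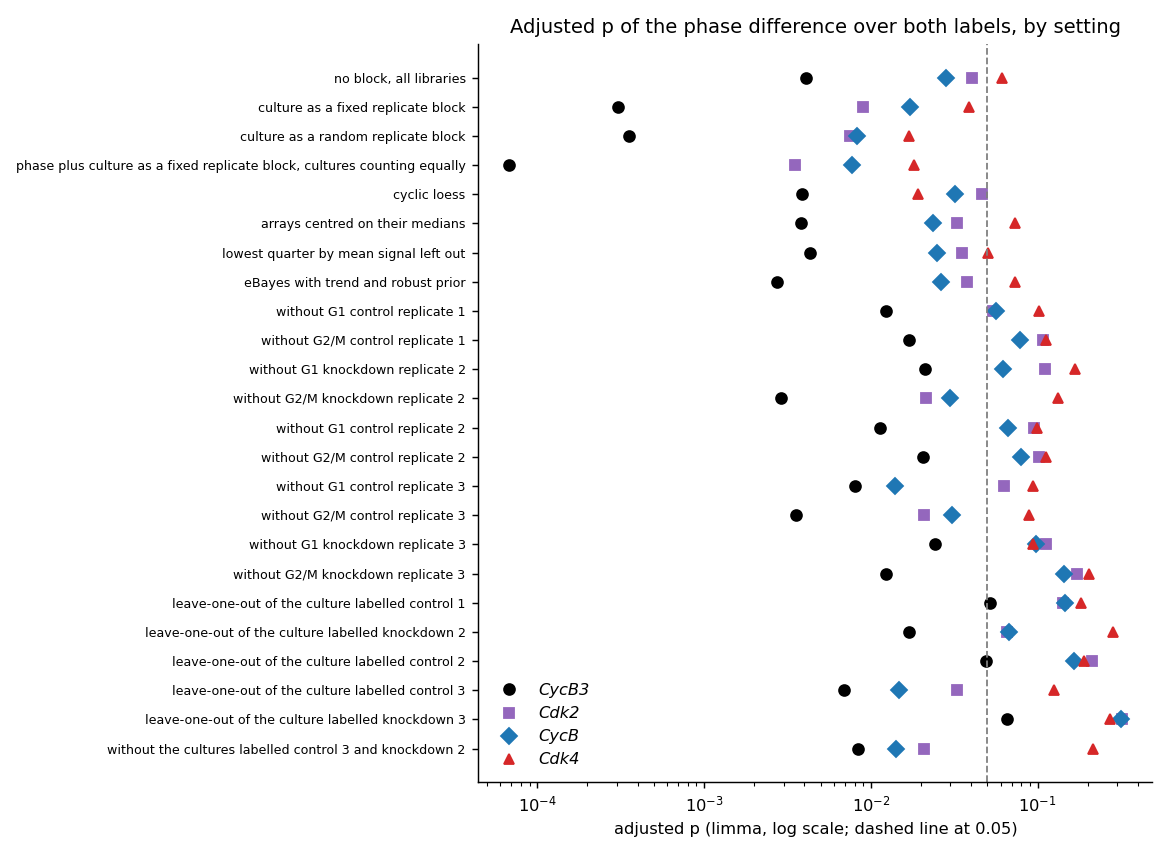
Adjusted p (limma, log scale) of the phase difference over both labels for CycB3, Cdk2, CycB and Cdk4, in the reported fit (top row) and under 23 other settings, with a dashed line at 0.05. CycB3 lies left of the line in all settings but those without the cultures labelled control 1 or knockdown 3, while Cdk2 and CycB cross it when most single libraries are left out and Cdk4 passes in 4 settings.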

How the data were processed

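RNA of 10 sorted S2 cell libraries was measured on Affymetrix arrays. The authors deposited log2 signals. RMA is the 1 method that the submitters' processing notes name, with its version not given in the sources used here. It removes shifts shared by most transcripts. Of 18952 probe sets, 183 array controls were left out, with no filter on dim signal. No detection calls were used, and array number limits precision. In the platform annotation 13647 probe sets had 1 gene symbol, 402 had more and 4720 had no symbol. Names were brought up to date with RefSeq Release 6 gene identifiers (13544 matched).

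All 10 arrays entered 1 limma model (limma 3.58.1, R 4.3.3) with 4 group coefficients and no block (residual df 6, prior df 3.09). The Benjamini-Hochberg adjustment covered all 18769 probe sets, with a threshold of 0.05. Pairing was checked by correlating deviations from group means over probe sets. Libraries of 1 culture correlated at 0.514 to 0.685, all over 0.1, though unpaired libraries reached 0.517, so the value with a culture replicate block stands beside each phase result whose call it changes. With 2 knockdown libraries a phase, deviations mirror each other, so both knockdown cultures necessarily gave the same value, 0.655. The unpaired 0.517 was between knockdown 2 in G1 and control 3 in G2/M, the cultures with high Slimp signal. The block is fixed unless called random. A gene with several probe sets was read from the one with the highest mean.

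Members and lists were chosen with earlier results of these data known. Every measured member was named in phase contrasts. In contrasts of labels the called members or the 2 smallest p were named. From each list up to 4 called genes or the 2 smallest p were named, and for CycB, CycB3 and CycE the 3 genes most alike. The same rule could not be applied to CycA and stg. Alternatives were paired blocks, scalings, a signal filter, another variance prior, and libraries or cultures left out.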

Additional observations from a re-analysis of the deposited data

How the results depend on the processing

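Over 23 alternatives, 0 to 4 of 7 members were called between phases over both labels (3 reported). Leaving out single libraries or cultures gave 0 to 3 members there, 0 to 1 in control (1 reported) and 0 in knockdown (0 reported). In contrasts of labels and in the interaction, 0 members were called under every alternative run. Of 881 values of named genes under alternatives, 744 kept direction and side of the threshold, 66 lost a call, 28 gained one and 43 changed sign. The cause of these changes was not tested.

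With culture as a fixed or random replicate block, 2 and 3 members were called in control and 1 and 1 in knockdown. All probe sets called were 1678 and 1325 in control (169 reported), 315 and 160 in knockdown (0 reported) and 2938 and 2541 over both labels (899 reported), where cultures counting equally gave 3623. With the replicate number as a block, 0 probe sets were called between labels in G1 or G2/M.

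Cyclic loess, median centring and the other prior each called 2 probe sets in knockdown. Single leave-outs called 0 to 213 in control, 0 to 1 in knockdown and 1 to 928 over both labels. Over both labels 1449 were called without the cultures control 3 and knockdown 2, an alternative added once the data had been seen. Without control 3 and knockdown 3, 363 were called between labels in G1 and 131 in G2/M, none a member. These settings, and those without 1 knockdown library, leave an arm of 1 library, which is assumed to vary like the other groups.

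Sign changes fell on differences that were not called. Cyclic loess gave -0.02 for twe in control, 0.03 in knockdown and 0 over both labels, and -0.02 for CycE over both labels, as did cultures counting equally. Median centring gave 0.02 for twe in knockdown and over both labels. Without control 3 and knockdown 2, twe was 0.07 over both labels, and between labels CycE was 0.07 and CycD -0.04 in G1 and Cdk2 0.02 in G2/M. Without control 3 and knockdown 3, CycD was -0.05 in G1.

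Single leave-outs moved CycD from -0.11 to 0.04, CycE from -0.23 to 0.09 and twe from -0.09 to 0.18 in control. In knockdown they moved CycE from -0.20 to 0.52, twe from -0.06 to 0.02 and Rbf2 from -0.07 to 0.72. Over both labels CycE ran from -0.17 to 0.19 and twe from -0.05 to 0.08. Between labels CycD ran from -0.04 to 0.09 in G1 and from -0.12 to 0.04 in G2/M, and Cdk2 from -0.39 to 0.19 in G2/M. In the interaction CycE ran from -0.06 to 0.66 and CycD from -0.15 to 0.01.

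The filter on low mean signal removed twe and gave no value for it. With 2 or 3 libraries a group, small differences such as those of CycD and twe lie within the intervals given.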
